A study of Homo sapiens with 9 samples.

Results

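This section describes 10 genes of ferritin and iron handling in HeyA8 cells, an established human ovarian cancer line that the labels also spell Hey8A. They include the ferritin heavy chain pseudogene FTH1P3, the ferritin light chain gene FTL and the import genes TFRC, STEAP3 and SLC11A2. The others are the exporter SLC40A1, the ferritin receptor NCOA4, the iron chaperone PCBP1 and the iron sensors ACO1 and IREB2. The genes were chosen by name from a set of iron handling genes, with earlier results of these arrays in view. The values known to have been in view are the large differences of FTH1P3. They are therefore given as a description with no p-value, although FTH1P3 stays in the counts of called genes and in the medians. Of the 10 genes, 9 carried a named probe and all 9 passed the filter on dim probes, out of 10862 genes tested and 18354 genes with a named probe. IREB2 was not analysed here. The 9 genes were read by 12 probes, since FTL, SLC40A1 and STEAP3 had a pair of probes each.

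The arrays were Illumina bead arrays, hybridised with biotin-labelled cRNA made from total RNA. HeyA8 cells were seeded in 6-well plates in RPMI 1640 on day 0, and on day 4 the medium was renewed and the cells were collected after 24 h. The first group was monoculture in complete medium, the second monoculture in medium lacking glutamine, and the third was deprived of glutamine in the same way but had shared its medium since day 1 with cancer-associated fibroblasts (CAFs) seeded on inserts. Each group had 3 arrays, and 9 arrays were used in all. The result is that of 1 cell line, the origin of the fibroblasts is not given in the labels, and fibroblast coculture with glutamine present was not analysed here. The labels do not say whether the arrays of a group came from separate cultures, so the p-values cover the spread between arrays alone, and that spread may be technical.

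Iron enters most cells bound to transferrin through the transferrin receptor, is reduced in endosomes and is carried into the cytosol, where chaperones deliver it to enzymes and to ferritin, a hollow shell of heavy and light chains that stores it. Ferritin is opened by autophagy when iron is needed, and ferroportin carries iron out of the cell. Iron regulatory proteins sense cytosolic iron and bind iron-responsive elements in transcripts. When iron is scarce they block the translation of ferritin and stabilise the transcript of the transferrin receptor. The block on translation does not show in the level of a transcript, whereas the stabilisation can.

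The following sequence is shown because it is the loop by which an iron regulatory protein recognises the FTL transcript. It is the stretch from base 25 to base 50 of the transcript, on the plus strand at chr19:48965333-48965358 of GRCh38.p14, taken from RefSeq. Capitals mark the loop motif CAGTGN, searched on the transcribed strand.
FTL: gtctcttgcttcaaCAGTGTttggac
A C stands 6 bases before the loop in FTL. Of 35116 RefSeq transcript starts, 6.36% held the loop motif in their first 50 bases and 1.71% held it with a C at that distance. RefSeq gave a start for 9 of the 10 genes, IREB2 included and FTH1P3 not. Of these 9, FTL and NCOA4 held the loop motif there, and in NCOA4 it had no C at that distance. Later parts of the transcripts were not searched, so a gene without the motif here may still carry such an element elsewhere. A match of letters is a description and does not show a functional site.

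The deposited values have a log2-like scale, on which most silent genes lie at a floor near 7.405 and the brightest value of any array was 14.62. Folds were computed as if the scale were log2. The arrays had nearly the same distribution of values, so each difference is relative to the other genes, and in bulk RNA fewer cells of a kind and less RNA per cell cannot be told apart. Levels of different probes are not compared. Arrays of the same group correlated at r from 0.996 to 0.998 across probes, and no array stood apart from its group.

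**Figure D1:**
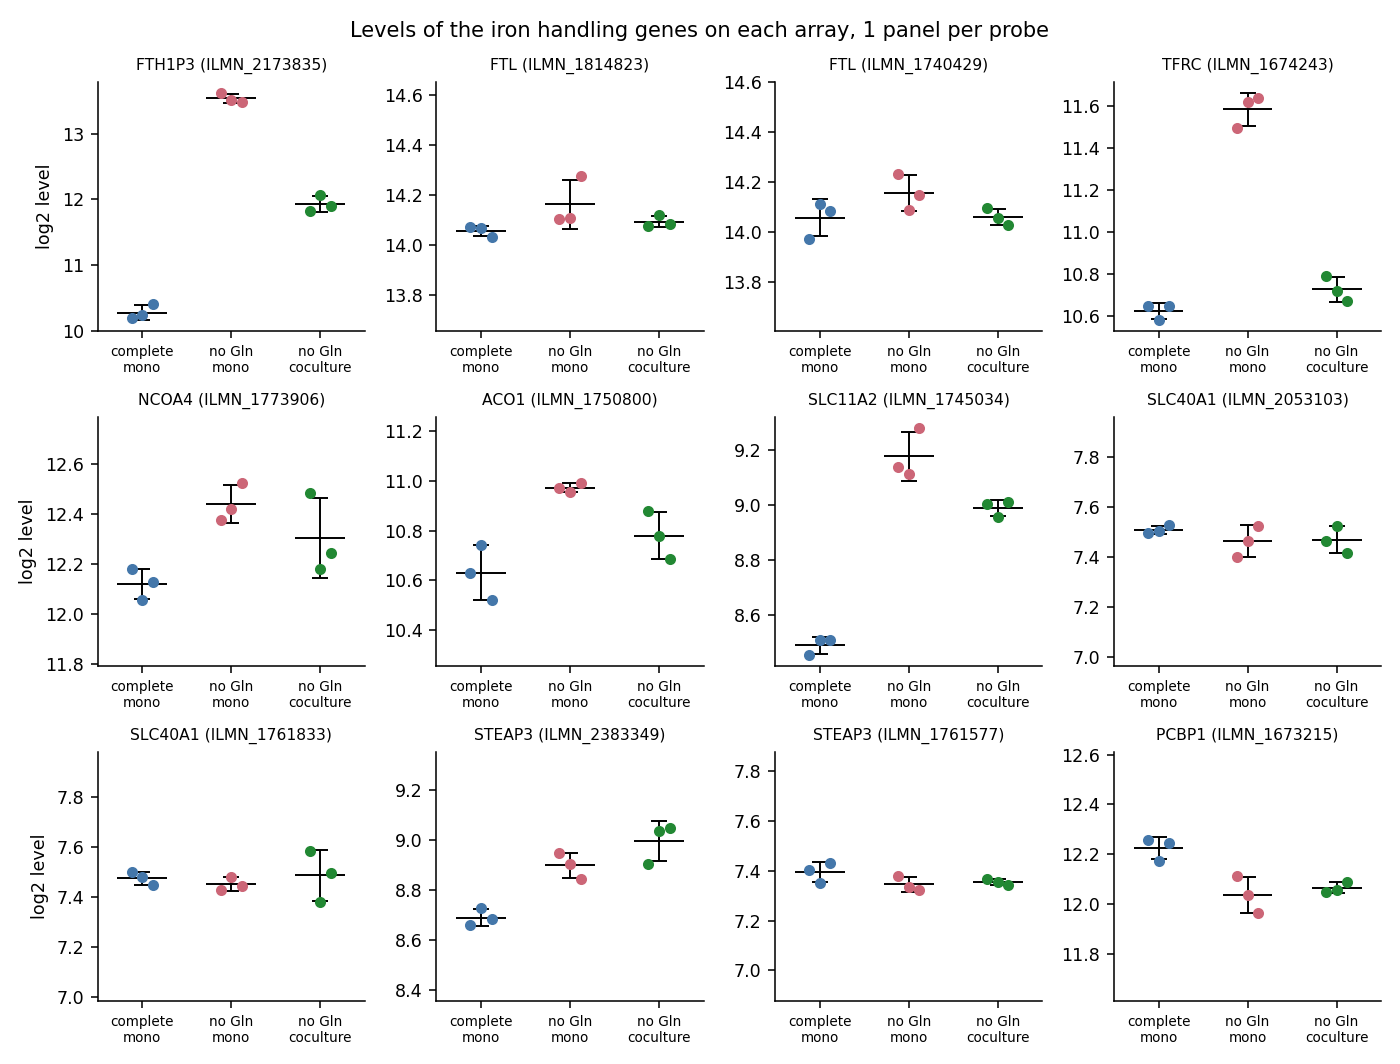
Levels of the 9 iron handling genes with a probe, on the deposited log2 scale (vertical axis, a separate range in each panel), in monoculture with complete medium, monoculture without glutamine (no Gln) and coculture without glutamine. Points are single arrays, and bars show the mean and SD of 3 arrays. FTH1P3 lies near 10.27, 13.54 and 11.93 in the 3 groups, TFRC returns to 10.73 in coculture, and FTL stays near 14.1 on both probes.

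The comparison of monocultures asked how iron handling genes differed after 24 h without glutamine. The FTH1P3 probe was 9.61-fold higher without glutamine. The import genes TFRC, SLC11A2 and STEAP3 rose, by 1.94-fold, 1.61-fold and 1.16-fold, and so did ACO1 (1.27-fold) and NCOA4 (1.25-fold). The iron chaperone PCBP1 fell 1.14-fold. The light chain of ferritin, FTL, and the exporter SLC40A1 did not pass the test.

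For ferritin, transcripts were read by the probes named FTH1P3 and FTL, which do not measure stored iron. FTH1P3 is a processed pseudogene of the ferritin heavy chain, read by probe ILMN_2173835. Whether this probe also reads the near-identical heavy chain transcript was not tested, so which of both transcripts its values count is uncertain. The heavy chain gene FTH1 itself was not analysed here. FTH1P3 stood at 10.19, 10.23 and 10.40 in complete medium, at 13.62, 13.52 and 13.48 in the deprived monocultures and at 11.83, 12.07 and 11.90 in coculture. The 3 groups did not overlap, with deprived monoculture highest and complete medium lowest. The difference without glutamine was 3.26 (SE 0.072) on the log2 scale, the second highest of all 10862 genes tested.

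FTL encodes the light chain of ferritin. Its brighter probe (ILMN_1814823) stood at 14.07, 14.07 and 14.03 in complete medium, at 14.10, 14.11 and 14.28 in the deprived monocultures and at 14.08, 14.12 and 14.09 in coculture. All deprived monocultures lay above complete medium, but the nearest arrays were 14.07 and 14.10. The log2 difference was 0.11, with a 95% confidence interval from -0.01 to 0.22 (limma, adjusted p = 0.108). The other FTL probe (ILMN_1740429) was read from a fit over all probes. There it differed by 0.10 (SE 0.051; adjusted p = 0.199), with overlapping groups, and the brighter probe by 0.11 (SE 0.05; adjusted p = 0.153). Both FTL probes lay close to the upper end of the scale, with 18 and 21 of 34476 probes brighter, and whether a rise there is compressed was not tested.

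The import genes follow, and the stretches before the transcript starts of TFRC and SLC11A2 are shown because these coding genes had the largest differences without glutamine. Both are 180 bases on the minus strand of GRCh38.p14, from RefSeq, ending at the base before the start, TFRC at chr3:196082091-196082270 and SLC11A2 at chr12:51026385-51026564. Capitals mark the core of the hypoxia response element, ACGTG or GCGTG on either strand, which hypoxia-inducible factors bind, and no overlap with other motifs was considered.
TFRC: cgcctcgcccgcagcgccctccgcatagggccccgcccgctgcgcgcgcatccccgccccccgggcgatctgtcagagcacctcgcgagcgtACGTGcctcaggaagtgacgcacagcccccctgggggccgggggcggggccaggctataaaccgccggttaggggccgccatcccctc
SLC11A2: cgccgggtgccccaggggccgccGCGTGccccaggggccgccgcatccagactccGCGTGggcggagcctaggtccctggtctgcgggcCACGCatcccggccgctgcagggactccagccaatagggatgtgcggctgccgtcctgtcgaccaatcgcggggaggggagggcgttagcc
TFRC held 1 core, 88 bases before its start, and this SLC11A2 start held 3, at 157, 125 and 91 bases. The SLC11A2 start shown is the one with the most cores of 4 in the table. Cores also stood before the starts of FTL and ACO1, so that 4 of the 9 genes with a RefSeq start had one, and 35.8% of the 35116 starts held a core in a stretch of this length. The motif is thus common and the matches are given as letters only.

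TFRC encodes the transferrin receptor, the main route of iron into dividing cells. It stood at 10.64, 10.58 and 10.64 in complete medium, at 11.49, 11.62 and 11.63 in the deprived monocultures and at 10.79, 10.72 and 10.67 in coculture. All deprived monoculture arrays lay far above the other 6, and coculture lay just above complete medium. TFRC rose by 0.96 (SE 0.063; adjusted p = 7.87e-11), and 4.77% of all genes had a larger difference in either direction.

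SLC11A2 encodes DMT1, which carries ferrous iron across the membrane of endosomes and of gut cells. It stood at 8.46, 8.51 and 8.51 in complete medium, at 9.14, 9.11 and 9.28 in the deprived monocultures and at 9.004, 8.958 and 9.012 in coculture. The 3 groups did not overlap, and coculture lay nearer to deprived monoculture than to complete medium. SLC11A2 rose by 0.69 (SE 0.061; adjusted p = 7.83e-09).

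STEAP3 is the endosomal reductase that turns transferrin-borne ferric iron into ferrous iron. Its brighter probe (ILMN_2383349) stood at 8.66, 8.73 and 8.68 in complete medium, at 8.95, 8.90 and 8.85 in the deprived monocultures and at 8.90, 9.04 and 9.05 in coculture. Both deprived groups lay above complete medium and overlapped with each other. STEAP3 rose by 0.21 (SE 0.062; adjusted p = 0.00689). The other probe (ILMN_1761577), which the platform annotation assigns to another transcript, lay at the floor on all 9 arrays, from 7.32 to 7.43. With the mean of both probes the difference was 0.08 and the call was lost (adjusted p = 0.109).

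For the sensing of iron and its release from ferritin, the transcripts of ACO1 and NCOA4 were read. ACO1 is iron regulatory protein 1, a cytosolic aconitase that binds iron-responsive elements when it lacks its iron-sulfur cluster. It stood at 10.63, 10.74 and 10.52 in complete medium, at 10.97, 10.95 and 10.99 in the deprived monocultures and at 10.88, 10.78 and 10.69 in coculture. Deprived monoculture lay above both other groups, which overlapped. ACO1 rose by 0.34 (SE 0.069; adjusted p = 0.00029).

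NCOA4 is the autophagy receptor that takes ferritin to the lysosome. It stood at 12.18, 12.06 and 12.13 in complete medium, at 12.38, 12.42 and 12.52 in the deprived monocultures and at 12.49, 12.18 and 12.24 in coculture. Deprived monoculture lay above complete medium, while the coculture arrays were spread from just above complete medium to the level of deprived monoculture. NCOA4 rose by 0.32 (SE 0.073; adjusted p = 0.000867).

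PCBP1 is an RNA-binding protein that also hands iron to ferritin. It stood at 12.26, 12.17 and 12.25 in complete medium, at 12.11, 12.04 and 11.97 in the deprived monocultures and at 12.05, 12.06 and 12.09 in coculture. All 6 deprived arrays lay below complete medium. PCBP1 fell by 0.19 (SE 0.059; adjusted p = 0.0106), and the call was lost when the third deprived monoculture was left out (adjusted p = 0.055).

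SLC40A1 encodes ferroportin, the iron exporter. Both its probes lay at the upper edge of the floor, with group means from 7.45 to 7.51, and 5 and 6 of the 9 arrays were under the edge of 7.50. Its groups overlapped on both probes. The log2 difference without glutamine was -0.05 (95% confidence interval from -0.13 to 0.04; adjusted p = 0.369), and a change near the floor is hard to detect.

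In this comparison 54.3% of all genes tested were called, that is, had an adjusted p under 0.05 in limma's test, with 30% of all genes higher and 24.3% lower. Of the 9 iron handling genes tested 7 were called, 6 higher and 1 lower, FTH1P3 included. Since the genes were proposed with results of these arrays known, nothing is read from this count or from the median that follows. The median log2 difference was 0.32 over the 9 genes and 0.02 over all genes.

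**Figure D2:**
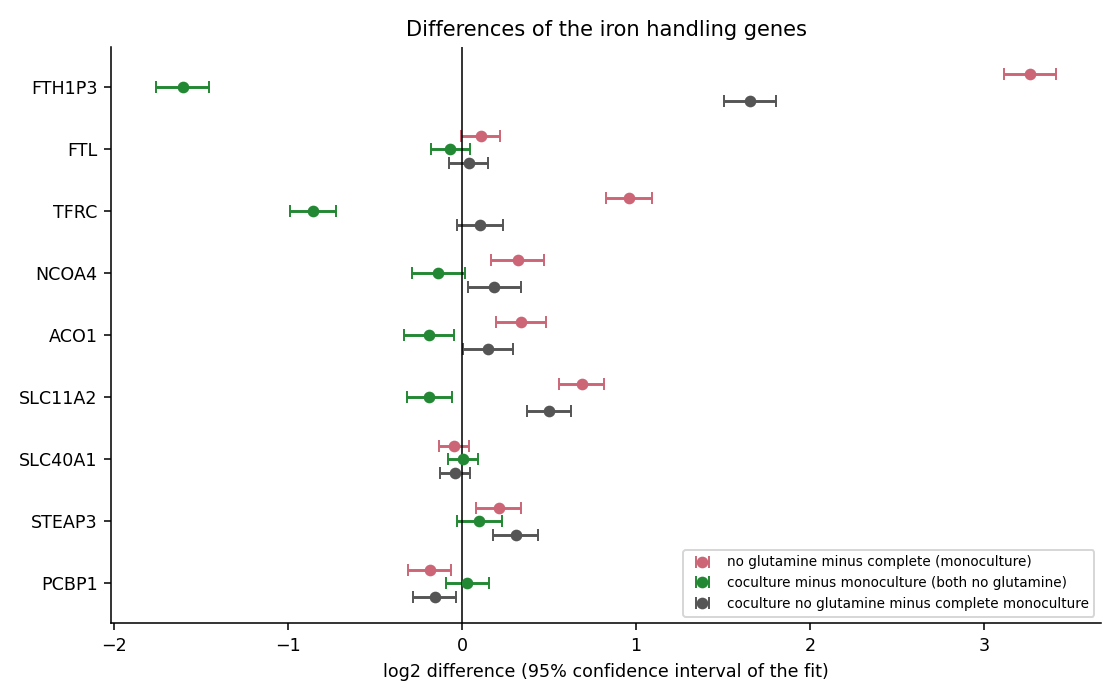
Log2 differences of the 9 iron handling genes (horizontal axis) in the 3 comparisons, with the 95% confidence interval of the fit. TFRC differs by 0.96 without glutamine, by -0.86 in coculture and by 0.10 between deprived coculture and complete medium, whereas the intervals of FTL and SLC40A1 include 0 in all 3 comparisons.

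Cells deprived of glutamine with and without fibroblasts were compared next, to ask how the iron handling genes of deprived cancer cells differed when fibroblasts shared the medium. FTH1P3 was 3.05-fold lower in coculture (log2 difference -1.61, SE 0.072), and 1 gene of all tested had a lower difference. TFRC was 1.81-fold lower (-0.86, SE 0.063; limma, adjusted p = 3.24e-09). Of all genes, 0.884% had a larger difference in either direction than TFRC. SLC11A2 and ACO1 were 1.14-fold lower each. This comparison shares the deprived monoculture arrays with the one before, which enter both differences with opposite sign.

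The call of SLC11A2 (-0.19, SE 0.061; adjusted p = 0.027) was lost under 5 of 15 alternatives, among them those that left out the third deprived monoculture (adjusted p = 0.131) or coculture array 1 (0.0539), 2 (0.0974) or 3 (0.0513). The call of ACO1 (-0.19, SE 0.069; adjusted p = 0.0446) was lost under 8 of 15, among them every one that left out a deprived monoculture (0.0823, 0.0798 and 0.0903 for arrays 1, 2 and 3), the first array in complete medium (0.0546), or coculture array 2 (0.106) or 3 (0.196).

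NCOA4 differed by -0.14 (SE 0.073; adjusted p = 0.183), with coculture array 1 at 12.49 and the other two at 12.18 and 12.24. Without that array the difference was -0.23 (adjusted p = 0.0209). FTL differed by -0.07 (95% confidence interval from -0.18 to 0.04) on its brighter probe. In the fit over all probes that probe differed by -0.07 (SE 0.05) and the other by -0.10 (SE 0.051). STEAP3 differed by 0.10 (adjusted p = 0.267), PCBP1 by 0.03 (0.777) and SLC40A1 by 0.01 (0.938), with overlapping groups for all 3. Of the 9 genes, 0 were called higher and 4 lower, FTH1P3 included, where 27.8% of all genes were called, 12.7% higher and 15.1% lower. As in the first comparison, nothing is read from this count or from the median that follows. The median difference was -0.14 over the 9 genes and -0.01 over all genes.

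Deprived coculture was then set against monoculture in complete medium, to ask which iron handling genes still differed from fed cells when fibroblasts were present. The 2 groups differ in both glutamine and fibroblasts, which cannot be told apart here. FTH1P3 was 3.15-fold higher in deprived coculture (log2 difference 1.66, SE 0.072). SLC11A2 was 1.41-fold higher (0.50, SE 0.061; limma, adjusted p = 1.4e-06) and STEAP3 1.24-fold higher (0.31, SE 0.062; adjusted p = 0.000384). With the mean of both STEAP3 probes the difference was 0.13 and remained called (adjusted p = 0.0151).

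TFRC differed by 0.10, with a 95% confidence interval from -0.03 to 0.23 (adjusted p = 0.21), although its arrays did not overlap. NCOA4 (0.18, SE 0.073; adjusted p = 0.0483) and PCBP1 (-0.16, SE 0.059; adjusted p = 0.0347) were called, each losing the call under 7 of 15 alternatives. For NCOA4 the difference was 0.09 (adjusted p = 0.323) without coculture array 1, and for PCBP1 the adjusted p rose to 0.168 after quantile normalization was repeated. ACO1 differed by 0.15 (adjusted p = 0.0917), by 0.205 without the second array in complete medium, where it was called (0.034), and by 0.0935 without array 3 of that group (0.346). FTL differed by 0.04 (0.627) and SLC40A1 by -0.04 (0.473). Of the 9 genes 4 were called higher, FTH1P3 included, and 1 lower, where 43% of all genes were called, 22.3% higher and 20.7% lower. Again nothing is read from this count or from the median that follows. The median difference was 0.15 over the 9 genes and 0.01 over all genes.

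The 3 groups could be ordered for some of the genes. FTH1P3 and SLC11A2 ran from complete medium through deprived coculture to deprived monoculture. In SLC11A2 each step was larger than the spread between arrays, although its upper step is the call described above as lost under 5 alternatives. For FTH1P3 the order is a description only, since its differences were in view when the genes were chosen. In TFRC complete medium and coculture were neighbours that did not pass the test, and deprived monoculture stood above both. In ACO1 the order was the same as in TFRC, and complete medium and coculture overlapped, but its upper step is the call lost under 8 of 15 alternatives. In NCOA4 deprived monoculture stood above complete medium, and the place of coculture turned on its array 1. In STEAP3 and PCBP1 both deprived groups lay on 1 side of complete medium and did not differ beyond their spread. FTL and SLC40A1 showed no step that passed the test.

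Other genes of iron and haem biology were followed as lists, with the genes below named by their size of difference among called genes. For the counts that follow, 30% of all genes tested were called higher and 24.3% lower without glutamine. In coculture these shares were 12.7% and 15.1%. Of the transporters, reductases and trafficking factors of iron uptake, 11 of 15 were tested. Without glutamine 3 rose and 4 fell, with a median of -0.01. SLC39A14, a metal transporter that also takes up iron not bound to transferrin, rose 1.55-fold to 9.32 ± 0.04 (SD, n = 3), and LCN2, a siderophore-binding protein, rose to 7.83 ± 0.02 from 7.44 ± 0.04. All its arrays in complete medium were under the edge of the floor and it passed the filter through the other groups, so no fold is given. RAB11A, a GTPase of the recycling endosome, fell 1.38-fold. In coculture 2 of the 11 were higher and 2 lower. RAB11A was 1.24-fold higher. LCN2 was lower, at 7.56 ± 0.05 (SD), close to the edge of the floor, so no fold is given there either. Transferrin itself (TF), TFR2, STEAP2 and STEAP4 were too dim to test.

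Of the export and systemic control genes 3 of 10 were tested. NEO1, a receptor with a part in hepcidin control in liver, rose 1.47-fold without glutamine, and 0 of 3 were called in coculture. NEO1 differed there by -0.16 (limma, adjusted p = 0.19; unadjusted p = 0.0798), and by -0.26 without deprived monoculture array 3, where it was called (adjusted p = 0.0276). The ferroxidases HEPH and CP and the hormone hepcidin (HAMP) were too dim to test. Mitochondrial ferritin (FTMT) and FTHL17, the ferritin relatives that had a probe, were also too dim.

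Of the iron sensing and chaperone list, 10 of 11 were tested, 3 rose without glutamine and 5 fell. EPAS1, the hypoxia-inducible factor 2-alpha, whose transcript carries an iron-responsive element, rose 2.75-fold, from 8.32 ± 0.11 to 9.78 ± 0.05 (SD, n = 3; adjusted p = 1.35e-13). It was lower in coculture (log2 difference -0.996), at 8.79 ± 0.04. GLRX3, a glutaredoxin that carries iron-sulfur clusters in the cytosol, fell 1.72-fold and was 1.31-fold higher in coculture (log2 difference 0.39). Its probes differed in size: with their mean the differences were -0.47 and 0.20. Without coculture array 2 another GLRX3 probe became the brightest, and the coculture difference was 0.18 and not called (adjusted p = 0.107), where the first probe still differed by 0.36. SKP1, a subunit of the ubiquitin ligase that removes IREB2 protein in iron-replete cells, rose 1.297-fold by its brightest probe, and by 0.10 on the log2 scale (adjusted p = 0.073) with the mean of its probes. FBXL5, the iron-sensing subunit of that ligase, fell 1.19-fold (adjusted p = 0.00193), and PCBP2, a relative of PCBP1 with the same chaperone role, fell 1.29-fold (adjusted p = 9.43e-06). FBXL5 and PCBP2 were picked for their roles after their values were seen. Both are read by their brightest probe, and no check with the mean of probes is given for them. In coculture 3 of the 10 were higher and 2 lower.

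Of the mitochondrial iron and iron-sulfur cluster genes 16 of 22 were tested, 6 rose without glutamine and 3 fell. ISCU, the scaffold on which clusters are built, rose 2.19-fold, from 10.54 ± 0.06 to 11.67 ± 0.07 (SD, n = 3), and SLC25A37, the mitochondrial iron importer mitoferrin 1, rose 1.63-fold. NFU1, a carrier of finished clusters, fell 1.54-fold. In coculture 3 were higher and 3 lower, with ISCU 1.35-fold and ISCA1, another assembly factor, 1.25-fold lower. SLC25A37 stood at 9.44 ± 0.05 in coculture against 9.28 ± 0.13 in deprived monoculture (adjusted p = 0.0772), and was called without deprived monoculture array 2 (log2 difference 0.23, adjusted p = 0.0192).

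Of the cytosolic iron-sulfur assembly genes 6 of 9 were tested, 3 rose without glutamine and 2 fell. CIAO2B, a targeting factor, rose 1.81-fold, while its partner MMS19 fell 1.503-fold and CIAO2A, which serves ACO1 and IREB2, fell 1.27-fold. In coculture CIAO2B was 1.29-fold lower and MMS19 1.21-fold higher, among 2 lower and 1 higher.

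Of the haem synthesis genes 8 of 10 were tested, 4 rose without glutamine and 2 fell. UROS rose 1.405-fold, and CPOX and UROD, which act later in the pathway, fell 1.44-fold and 1.34-fold. In coculture 3 were higher and 0 lower, and CPOX and UROD were 1.23-fold and 1.30-fold higher. Of the haem breakdown and transport genes 7 of 12 were tested, 4 rose and 1 fell. HMOX1, which frees iron from haem, rose 1.60-fold, from 7.78 ± 0.13 to 8.45 ± 0.08 (SD, n = 3), and was 1.60-fold lower in coculture, at 7.78 ± 0.11. FLVCR2, a membrane transporter, rose 1.497-fold, and BLVRA, a biliverdin reductase, fell 1.49-fold and stayed at 9.80 ± 0.03 in coculture. BLVRB, another such reductase, was 1.16-fold lower in coculture, a call lost when the first deprived monoculture (adjusted p = 0.131) or coculture array 1 (0.0698) or 3 (0.124) was left out. In all, 2 of the 7 were lower in coculture and 0 higher.

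Genes of lipid peroxide defence and ferroptosis, an iron-dependent form of cell death, had 17 of 20 members tested. Without glutamine 11 rose and 3 fell, with a median of 0.32. Of the tested genes SLC7A11, CHAC1 and AIFM2 were under the edge of the floor on all arrays in complete medium. They passed the filter through the other groups, which favours a rise, so nothing is read from their direction. SLC3A2, a subunit of the cystine importer, rose 3.33-fold, SAT1, which degrades polyamines, 2.08-fold, and GCLM, a subunit of the enzyme that starts glutathione synthesis, 1.72-fold. In coculture 0 were higher and 9 lower, with a median of -0.20, led by SAT1 (1.58-fold) and SLC3A2 (1.499-fold). Both folds of SLC3A2 are those of its brightest probe. With the mean of its probes the log2 differences were smaller, 1.18 without glutamine and -0.44 in coculture, and remained called. GPX4, the peroxidase that guards membranes, rose 1.48-fold and stood at 12.49 ± 0.03 in coculture against 12.53 ± 0.02 in deprived monoculture (adjusted p = 0.595). NFE2L2, the factor NRF2 that drives ferritin and glutathione genes, rose 1.69-fold and was 1.43-fold lower in coculture. GPX4 and NFE2L2 were picked for their roles after their values were seen, and are likewise given by their brightest probe without that check. Against complete medium, deprived coculture had 3 higher and 3 lower uptake genes, 1 and 1 of export, 3 and 4 of sensing, 4 and 5 of mitochondrial assembly, 2 and 2 of cytosolic assembly, 3 and 2 of haem synthesis, 3 and 2 of haem breakdown, and 10 and 3 of lipid peroxide defence. Of all genes tested, 22.3% were called higher and 20.7% lower against complete medium. Some genes tested in these lists, IBA57 and HMOX2 among them, were under the edge of the floor on part of the arrays. Nothing particular to iron biology is read from the counts of the lists in any comparison.

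**Figure D3:**
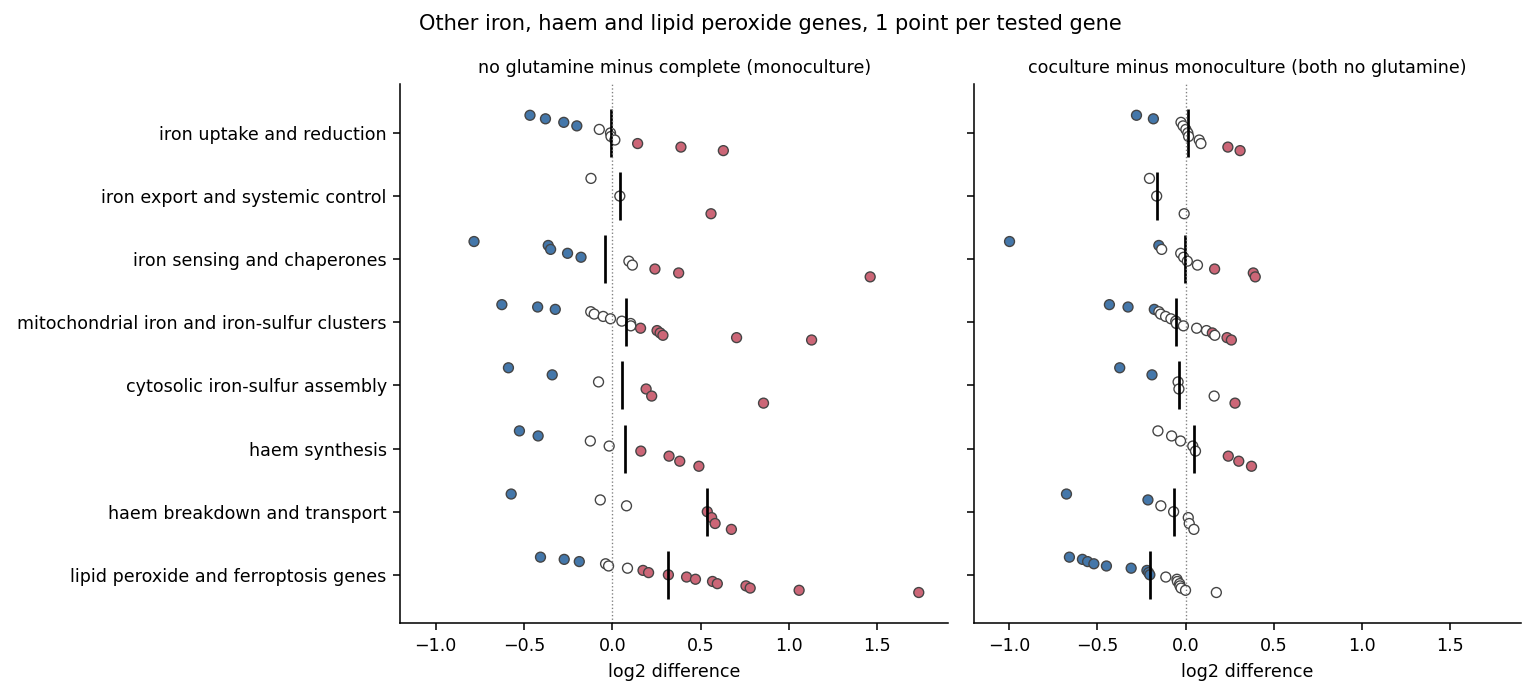
Log2 differences (horizontal axis) of the tested genes of 8 lists of iron, haem and lipid peroxide genes, without glutamine against complete medium (left) and in coculture against monoculture (right). Each point is a gene, red where called higher, blue where called lower and white where not called, and the black line is the list's median, which is 0.32 (left) and -0.20 (right) for the lipid peroxide genes and -0.01 and 0.01 for iron uptake.

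The genes whose pattern over the 9 arrays was most like that of FTH1P3 were sought among the 474 other genes whose group means spanned at least 1 on the log2 scale. They were TGIF1, a homeobox repressor (r = 0.997, by its brightest probe), BEX2 (0.997), DDIT3, the stress transcription factor CHOP (0.997), MAP1LC3B, a protein of the autophagosome membrane (0.996), and SRXN1, the sulfiredoxin that repairs oxidised peroxiredoxins (0.996). The 9 arrays fall into 3 groups, so that these correlations mostly compare group means and are a description. TGIF1 stood at 9.39 in fed cells and 10.55 in deprived cells alone by its brightest probe. With the mean of its probes it differed by only 0.37 without glutamine and by -0.17 in coculture. MAP1LC3B stood at 8.81 ± 0.02 in fed cells, 10.55 ± 0.07 in deprived cells alone and 9.70 ± 0.03 with fibroblasts. DDIT3 stood at 7.77 ± 0.12, 10.78 ± 0.03 and 9.50 ± 0.09 in the same groups. By the same measure SLC11A2 had r = 0.952 with FTH1P3, TFRC 0.896, ACO1 0.876 and PCBP1 -0.82, although the group means of these genes spanned less than 1. Among all 10862 genes tested, whatever their span, 532 had a higher r than SLC11A2.

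**Figure D4:**
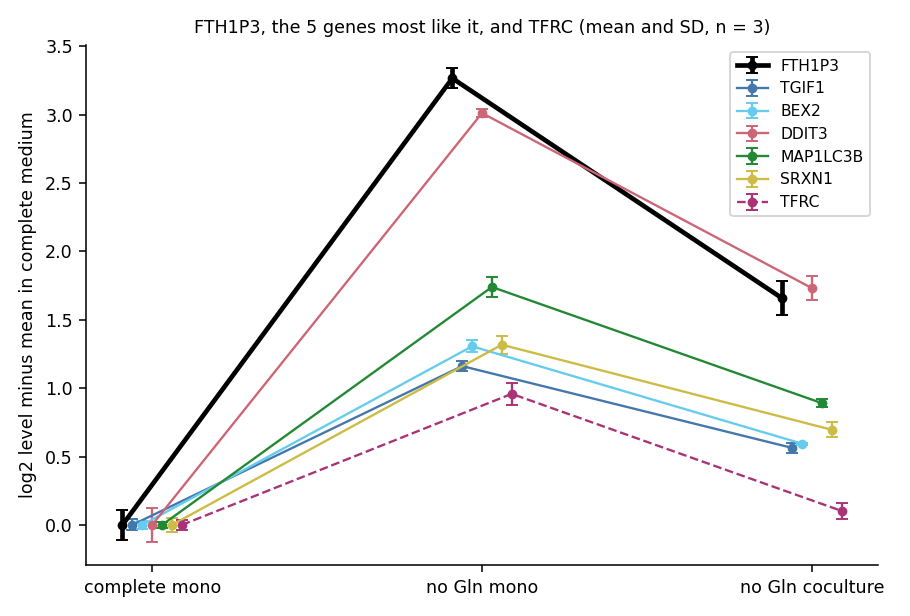
Mean log2 level minus the mean in complete medium (vertical axis) in the 3 groups, for FTH1P3, the 5 genes most like it and TFRC, with the SD of 3 arrays as bars and lines to guide the eye. FTH1P3 and its 5 nearest genes lie between the other groups in coculture, while TFRC (dashed) lies 0.10 above complete medium.

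The labelled cell type was checked with marker genes. Of 10 epithelial and ovarian cancer markers KRT8, KRT7 and PAX8 were the brightest, at 11.06 ± 0.15, 10.42 ± 0.12 and 9.23 ± 0.11 (SD, n = 3) in complete medium, while CDH1 and MUC16 lay at the floor on all 9 arrays. All 8 tested markers of this list fell without glutamine, led by KRT8 (2.74-fold), where 24.3% of all genes fell. Among them KRT19 was under the edge of the floor on the 6 deprived arrays and passed the filter through complete medium. In coculture 3 of the 8 were higher, KRT7 1.72-fold, PAX8 1.42-fold and KRT8 1.41-fold, and 0 were lower. Of all genes, 12.7% were higher and 15.1% lower there. Against complete medium 6 of these markers were lower in deprived coculture and 0 higher, where 20.7% of all genes were lower and 22.3% higher. Of 15 fibroblast markers with a probe 6 were at the floor on every array, COL3A1, LUM and PDGFRB among them. COL1A2, DCN and PDGFRA were there on 8 of 9. The brightest were ACTA2, at 10.19 ± 0.03 in fed cells, 11.73 ± 0.09 in deprived cells alone and 11.13 ± 0.05 with fibroblasts, FAP, at 7.82 ± 0.13, 7.41 ± 0.05 and 7.65 ± 0.02, and COL1A1 near the floor, at 7.56 ± 0.13 in coculture. In coculture 1 of the 6 tested fibroblast markers was higher (FAP) and 1 lower (ACTA2, 1.52-fold). FAP was under the edge of the floor on all arrays of deprived monoculture, so no fold is given for it. The mean level of the fibroblast list ran from 7.68 to 7.70 in the coculture arrays and from 7.70 to 7.72 in deprived monoculture, which held no fibroblasts. Its summed linear level ran from 3640 to 3665 in fed cells, 5618 to 6052 in deprived cells alone and 4602 to 4725 with fibroblasts, and ACTA2 was the 1 marker above the floor on every array. The part of these markers in the iron gene values was not tested.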

How the data were processed

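The authors deposited a table of log2-like values, with 34476 probes and 9 arrays, made with lumi per the submitters' processing notes. For its settings, background correction and log2 variant, no statement was found: not given in the sources used here. Probes were named from the platform annotation, in which 26366 had 1 symbol, 3 several and 8107 none, and the symbols of the 12 probes described here were unchanged in RefSeq. A gene was read by its brightest probe and kept when that mean over all arrays was above the median of all probes (7.46). All genes were fitted with limma 3.58.1 (lmFit, eBayes with trend, R 4.3.3), with a mean for each group, the 9 arrays sharing 1 estimate of the spread, two-sided tests and Benjamini-Hochberg adjustment over 10862 genes. Adjusted p under 0.05 was called. Gene values came from this fit, and comparisons between the probes of a pair from a second fit over all 34476 probes. The procedure was run on simulated data with independent noise and changes added to a small part of the genes. That setting differs from these data, so the run checks the code alone. The floor's edge, 7.50, is the 1st percentile of all values mirrored about their mode. Detection p-values were not used. Precision is limited by how few arrays there were (3 per group).

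The members and gene lists were chosen with earlier results of these data known. Of other lists, up to 3 called genes with the largest difference without glutamine and up to 2 in coculture were named, besides the 5 genes most like FTH1P3 and the 3 brightest of each marker list. Alternatives were single probes without a filter, the mean of a gene's probes, repeated quantile normalization, eBayes without trend, the arrays of 2 groups alone, a replicate block and each array left out. Sequences came from RefSeq (GRCh38.p14). No build is named with the values, and no gene coordinates are given for probes. Figures were made with Python 3.11.15 and matplotlib 3.10.9.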

Additional observations from a re-analysis of the deposited data

How the results depend on the processing

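Of 38 named genes in 3 comparisons, 114 differences were recomputed under 15 alternatives. The 38 do not include the marker genes, or FBXL5, PCBP2, GPX4 and NFE2L2, which were not recomputed. Of 1710 values, 1641 kept their direction and side of the threshold, 53 lost a call, 7 gained one and 9 turned in direction. Many of these directions could not turn. Single probes, eBayes without trend, the arrays of 2 groups alone and the replicate block leave the difference itself unchanged. So does leaving out an array outside the comparison, unless another probe becomes the brightest. There the adjusted p alone could change, so the tally does not measure how firm the directions are. The number of iron handling genes called in coculture was 4, and 2 when every probe was tested by itself, an alternative that adjusts over 34476 probes. In deprived coculture against complete medium it was 5, and 3 with every probe. Leaving out 1 array at a time gave 2 to 4 called genes in coculture, 3 to 5 against complete medium and 6 to 7 without glutamine, while the differences of TFRC ran over all alternatives from 0.932 to 1.003 without glutamine and from -0.90 to -0.83 in coculture. The coculture count was 2 without deprived monoculture array 3, coculture array 2 or coculture array 3, and the count against complete medium was 3 without complete medium array 3 or coculture array 1. Fewer arrays and, for single probes, more tests enter these alternatives; no other cause was tested. The turned values were all near 0 and not called. In coculture, SLC40A1 was -0.026 without deprived monoculture array 1 (range over left-out arrays -0.026 to 0.0894), PCBP1 -0.0075 without deprived monoculture array 3 (-0.0075 to 0.0655) and SKP1 0.0139 without coculture array 3 (-0.0334 to 0.0139). Against complete medium, UROD was 0.0041 after repeated normalization. SLC40A1 was 0.0118 without deprived monoculture array 3 and 0.0649 without coculture array 2 (-0.0473 to 0.0649), where its other probe became the brightest, and HMOX1 was -0.0205, -0.05 and -0.0556 without complete medium array 1, complete medium array 3 and coculture array 1 (-0.0556 to 0.0715).

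The labels number the arrays 1 to 3 in each group, but same-numbered arrays did not deviate together (correlations from -0.26 to 0.21, and 4 of 9 arrays most like their own number). With a replicate block 7, 4 and 5 iron handling genes and 5802, 2901 and 4563 genes were called without glutamine, in coculture and against complete medium, where the fit without it called 7, 4 and 5, and 5898, 3022 and 4670.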
